A study of Mus musculus with 12 samples.

Results

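Potassium channel genes were taken as the protein-coding genes whose symbol starts with Kcn, by the gene type of GENCODE release M21, present in the count tables of both time points. The rule used names only and gave 94 of the 41091 genes listed. They comprise the pore-forming subunits of the voltage-gated, inward rectifier, two-pore domain and calcium- or sodium-gated potassium channels, and the auxiliary subunits that carry a Kcn symbol. All 94 were matched to the annotation, 92 had counts in at least 1 library, and Kcnk16 and Kcnk18 had none in any library.

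Potassium channels let potassium leave a neuron and so pull its membrane potential back toward rest. Inward rectifiers and two-pore domain channels are open near rest and set the resting potential and input resistance. Voltage-gated channels of the Kv families end the action potential and limit repetitive firing, and the current carried by Kv7 subunits, the M-current, restrains bursts. In hippocampal pyramidal cells, A-type current of Kv4 channels dampens signals that spread back into dendrites, and small-conductance calcium-activated channels shape the potential that follows a burst and the response of spines.

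RNA was measured by stranded total RNA-seq in acute hippocampal mini-slices, from which the dentate gyrus had been cut away, as the study design states. The donors were C57BL/6 mice of 2 to 3 months, wild type. The LTP groups received 50 μM forskolin, which turns on adenylyl cyclase, during the first 5 min and then 5 min of the same forskolin with 30 mM KCl and 10 mM calcium, a chemical form of long-term potentiation (LTP). The control groups received artificial cerebrospinal fluid with 0.2% DMSO for 10 min, and slices were frozen 1 hr or 3 hr after treatment. Each of the 4 groups, a control and an LTP group at either time, has 3 libraries, and at each time point 1 animal gave a control and an LTP library. The slices hold all hippocampal cell types together, so fewer cells of a type and less RNA per cell cannot be told apart.

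Library totals ran from 37118382 to 50815001 counts, and 3 counts corresponded to 0.0584 to 0.0791 CPM (counts scaled to the size of the library). The 94 genes took between 0.47% and 0.536% of the counts of a library. 1 hr control replicate 2, which the study set aside as an outlier of its clustering, was left out of fits and group means, and its values are given separately. Summed markers of neurons lay between 6330 and 7420 CPM in the fitted libraries of the other groups, and at 6460, 5950 and 7590 CPM in 3 hr LTP replicates 1, 2 and 3, so the lowest and the highest library were both 3 hr LTP libraries. Counts of that pair also differed most among replicates, with a chi-square per degree of freedom of 85.6 against 9.49 in the closest pair. Markers of choroid plexus summed to 23.4 to 29.4 CPM. Markers of dentate granule cells were present in every group, with group means of 57.7 to 61.3 CPM for Prox1, 53.8 to 64.6 CPM for Dsp and 29.0 to 43.2 CPM for C1ql2. Calls used the quasi-likelihood test of edgeR and needed both an adjusted p below 0.1 and a difference of more than 1.2-fold.

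The levels of these genes, compared as CPM per kb of exon and averaged over the 4 group means, covered several orders of magnitude. Of the 92 detected genes, 22 lay above 10 CPM per kb and 28 below 1. The highest was Kcnab2, the cytoplasmic beta subunit Kvβ2 that binds Kv1 channels, at 108 CPM per kb. Kcna1, the Kv1.1 subunit of axonal delayed rectifiers, followed at 61.6 CPM per kb. Kcnj3, the GIRK1 subunit of G protein-gated inward rectifiers, stood at 52.5 CPM per kb, although 31.1% of its exonic bases overlap a gene on the opposite strand. The main A-type subunit of pyramidal cell dendrites, Kcnd2 (Kv4.2), was at 45.8 CPM per kb and the two-pore domain subunit Kcnk1 (TWIK-1) at 42.4.

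**Figure D1:**
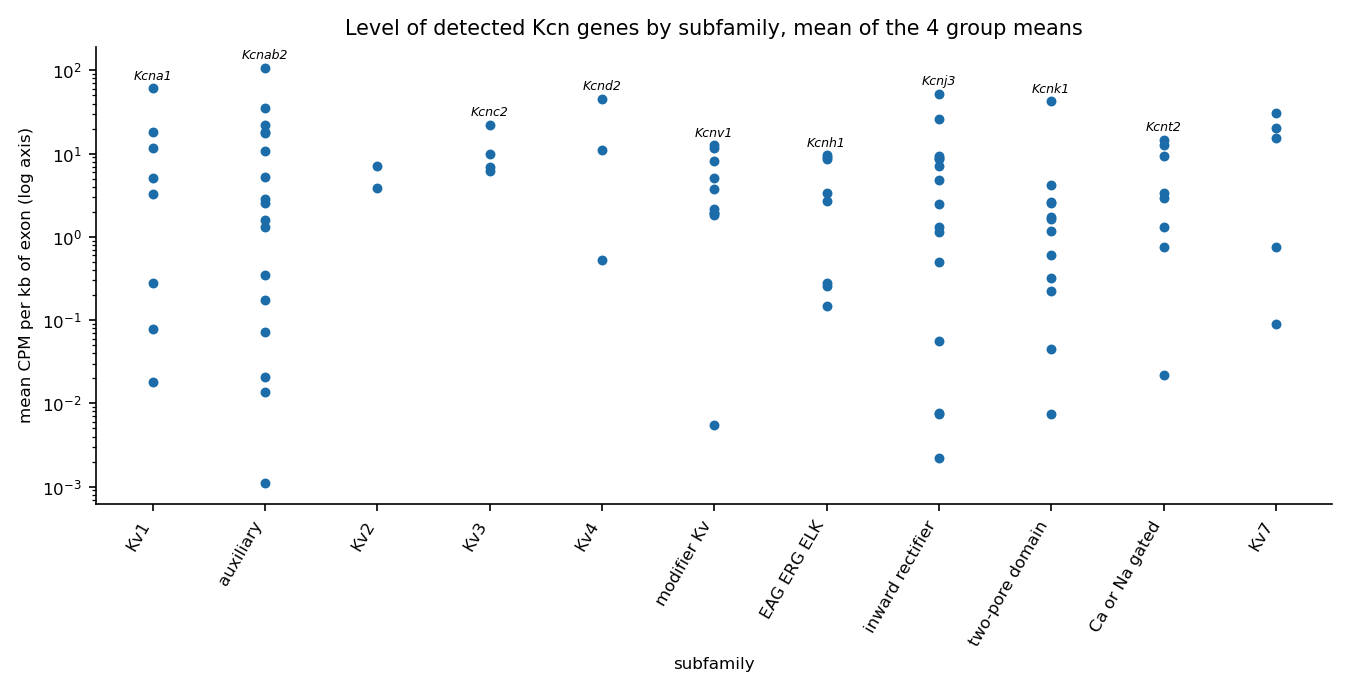
Mean level of each detected Kcn gene in CPM per kb of exon (log axis), averaged over the 4 group means, by subfamily. Each point is a gene, and the highest gene of most subfamilies is named. Kcnab2 stands highest at 108 CPM per kb.

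Leading genes of other subfamilies were the fast delayed rectifier Kcnc2 (Kv3.2) at 22.2 CPM per kb, the sodium-activated Kcnt2 (Slick) at 14.7, the modifier subunit Kcnv1 (Kv8.1) at 12.7 and the ether-à-go-go channel Kcnh1 (Kv10.1) at 9.63. In most subfamilies several genes lay within a few-fold of the leading one, whereas Kcnk1 stood well above the next two-pore domain gene, Kcnk2, at 4.25 CPM per kb. Low counts kept 14 of the 94 genes out of both LTP tests, and the highest of these, Kcna7, reached 0.261 CPM in any library. Changes in these 14 genes were not detectable at this depth, which left 80 genes tested at each time point.

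At 1 hr after LTP, a single potassium channel gene was called, and it rose. Kcnj2 encodes Kir2.1, a strong inward rectifier that holds the membrane near rest. It lies on the plus strand at chr11:111066164-111076821 (GRCm38), and none of its annotated exonic bases overlap another gene. Its level was 30.2 and 34.7 CPM in 1 hr control replicates 1 and 3 and 31.1 CPM in replicate 2, which the fit left out. The 1 hr LTP libraries had 59.1, 72.5 and 58.6 CPM. Every LTP library lay above every control library, with no overlap. Kcnj2 was 1.97-fold higher after LTP, with a log2 fold change of 0.98 ± 0.10 (SE, edgeR adjusted p = 0.00012). The call of 1 of 80 genes is 1.25%, beside 0.789% of all 17736 genes tested at 1 hr.

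By 3 hr this difference was no longer seen. Kcnj2 stood at 30.0, 30.1 and 29.4 CPM in the 3 hr controls and at 32.3, 26.3 and 28.1 CPM in the 3 hr LTP libraries. The groups overlapped, and the log2 fold change was -0.03 ± 0.088 (SE, edgeR adjusted p = 0.876). The change of the LTP effect from 1 hr to 3 hr was tested as an interaction in 1 model of the 4 groups, with calls at an adjusted p under 0.1. Kcnj2 was the gene called, with a log2 difference of -1.0 ± 0.15 (SE, edgeR adjusted p = 0.031). This is 1 of 81 genes or 1.23%, against 0.0592% of the 18584 genes tested, where 11 genes were called in all. The interaction call was lost when 1 hr control replicate 1, 1 hr control replicate 3, 3 hr control replicate 2 or 3 hr control replicate 3 was left out, with adjusted p up to 0.245 and log2 differences from -1.13 to -0.88 over all alternatives. The 1 hr call was kept in each of its 18 alternatives.

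No other inward rectifier gene was called at 1 hr. Kcnj16, which lies next to Kcnj2 in this gene set on the same strand (chr11:110968033-111027968) and encodes Kir5.1, had 22.7 and 21 CPM in the fitted controls against 17.7, 22 and 20.8 CPM after LTP. Its log2 fold change was -0.11 ± 0.10 (SE, edgeR adjusted p = 0.94). For the other Kir2 genes tested the log2 fold change was -0.11 ± 0.11 (SE) for Kcnj4 (Kir2.3), 0.17 ± 0.20 (SE) for Kcnj12 (Kir2.2) and -0.19 ± 0.26 (SE) for Kcnj14 (Kir2.4). Kcnj10 (Kir4.1), the main inward rectifier of astrocytes, had a log2 fold change of 0.07 ± 0.09 (SE).

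Outside Kcnj2, the smallest adjusted p at 1 hr was 0.663. It belonged to Kcnn3, the small-conductance calcium-activated channel SK3, with 12.3 and 11.8 CPM in the fitted controls and 16.7, 19.4 and 11.5 CPM after LTP. Replicate 3 of 1 hr LTP lay below the controls, and Kcnn3 was called when that library was left out. In order of unadjusted p the next genes included Kcnt1 (Slack, a sodium-activated channel, log2 fold change 0.24), Kcnmb4 (an auxiliary subunit of the large-conductance calcium-activated channel, -0.23), Kcnc4 (Kv3.4, -0.33), Kcnj8 (Kir6.1, a pore subunit of ATP-sensitive channels, -0.41) and Kcns1 (Kv9.1, -0.29), none of them called. Over the 80 genes, 33 had a positive log2 fold change and the median was -0.03, against -0.001 over all genes. At an unadjusted p under 0.05 there were 5 of 80 genes, 3 higher and 2 lower, beside 6.71% of all genes. Of 50 cell type markers, edgeR called 1 at 1 hr, the ependymal gene Ccdc153, with a log2 fold change of 0.81, and 12 had an unadjusted p under 0.05, among them 3 of 3 ependymal, 3 of 4 endothelial and 3 of 6 oligodendrocyte lineage markers. DESeq2 called 2, Ccdc153 and Otx2, and limma-voom called 0. The 3 ependymal markers summed to between 12.1 and 14.7 CPM in the controls and between 18.5 and 19.9 CPM after LTP. The part of this in the 1 hr result was not tested.

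**Figure D2:**
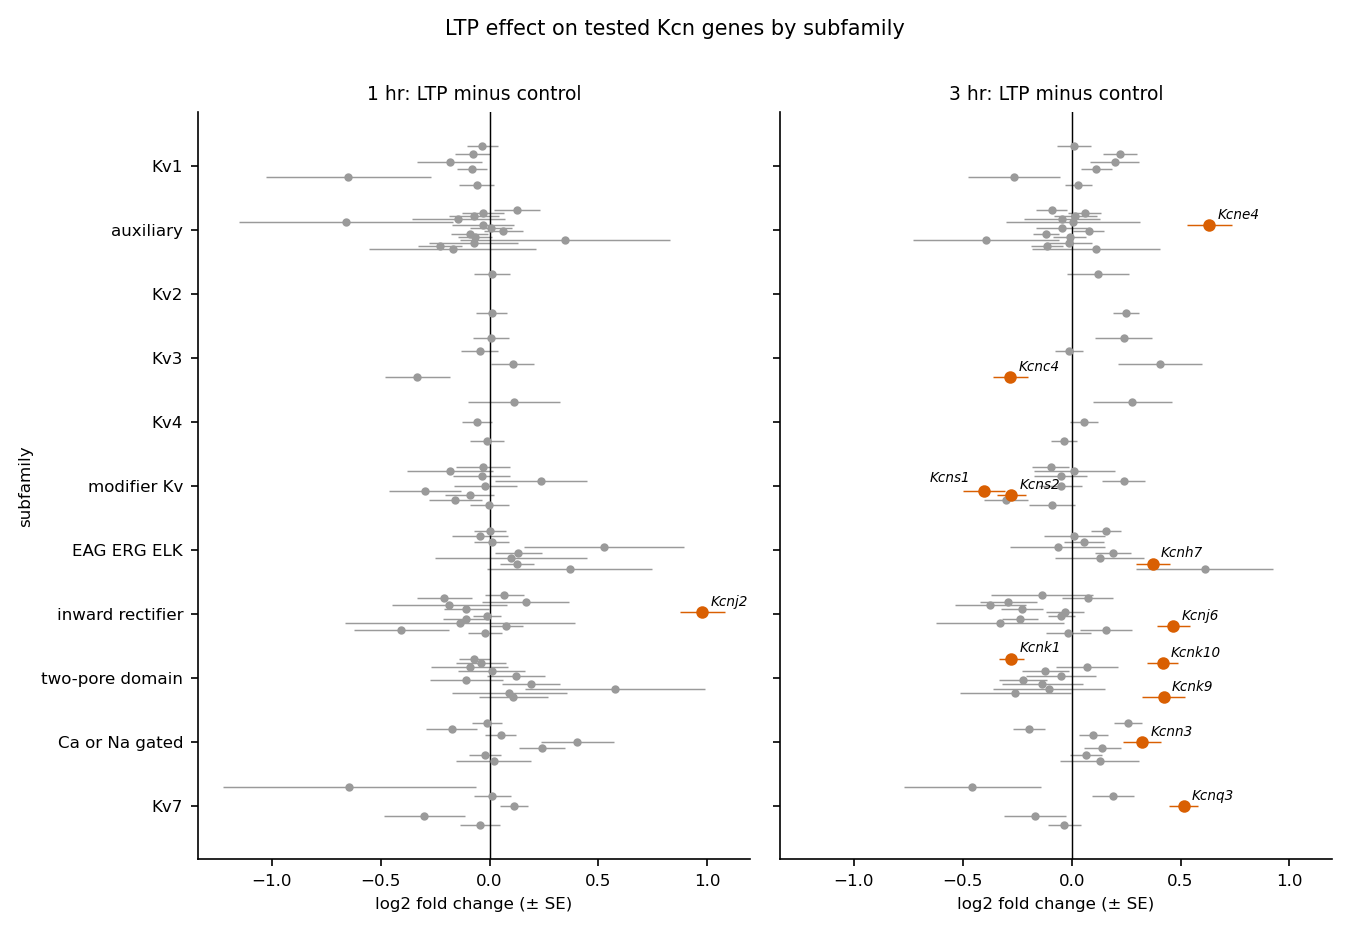
Log2 fold change of LTP against control (x axis, bars are ± SE) for each tested Kcn gene, by subfamily, at 1 hr (left) and 3 hr (right). Orange points are called genes. Kcnj2 is the 1 called gene at 1 hr, and at 3 hr 7 called genes lie above 0 and 4 below.

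At 3 hr after LTP, 11 of the 80 genes were called, and they came from 8 subfamilies. The 7 that rose were Kcne4, Kcnq3, Kcnj6, Kcnk9, Kcnk10, Kcnh7 and Kcnn3, by 1.25-fold to 1.55-fold. The 4 that fell were Kcns1, Kcnc4, Kcns2 and Kcnk1, by 1.21-fold to 1.32-fold. The calls are 13.8% of the genes, beside 6.6% of all 17508 genes tested. Those higher are 8.75% beside 5.07%, and those lower are 5% beside 1.53%. Over the 80 genes the log2 fold changes had a median of -0.002, as did those of all genes, and 40 were positive.

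Kcnq3 encodes Kv7.3, a subunit of the channels that carry the M-current. It lies on the minus strand at chr15:65986387-66286642. Its level was 199, 186 and 192 CPM in the 3 hr controls and 275, 251 and 289 CPM in the 3 hr LTP libraries. All 3 LTP libraries lay above all controls, and the rise was 1.43-fold, with a log2 fold change of 0.51 ± 0.067 (SE, edgeR adjusted p = 0.00633). The log2 ratios within animals 1, 2 and 3 were 0.47, 0.43 and 0.59. It was the 1 call of the 11 kept with each library left out in turn, and it was kept under every alternative. At 1 hr Kcnq3 had 211 and 208 CPM in the fitted controls and 228, 216 and 229 CPM after LTP. The LTP libraries lay above the controls there too, but the difference was not called (log2 fold change 0.11 ± 0.064, SE, edgeR adjusted p = 0.852). Kcnq5 (Kv7.5), another abundant Kv7 gene, had a log2 fold change of -0.03 ± 0.075 (SE).

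Kcnj6 encodes GIRK2, a subunit of the inward rectifiers opened by G proteins downstream of GABA-B and adenosine receptors. It lies on the minus strand at chr16:94748636-94997701. It had 59.8, 55.6 and 54.4 CPM in the 3 hr controls and 83.5, 70.7 and 78.1 CPM after LTP. The groups did not overlap, and the log2 fold change was 0.47 ± 0.077 (SE, edgeR adjusted p = 0.0179), a 1.38-fold rise. The other abundant GIRK subunits were not called. Kcnj3 (GIRK1) had a log2 fold change of -0.05 ± 0.061 (SE) and Kcnj9 (GIRK3) of -0.01 ± 0.10 (SE).

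Among the two-pore domain genes, which carry leak current, 2 rose and 1 fell. Kcnk10 (TREK-2, opened by stretch, lipids and heat) had 15.5, 17.0 and 15.7 CPM in the 3 hr controls and 21.8, 21.2 and 20.9 CPM after LTP, with a log2 fold change of 0.42 ± 0.072 (SE, edgeR adjusted p = 0.0205). Kcnk9 (TASK-3, an acid-sensitive leak channel) had 7.72, 8.12 and 8.68 CPM in the controls and 12, 10.2 and 10.3 CPM after LTP, with a log2 fold change of 0.42 ± 0.098 (SE, edgeR adjusted p = 0.0543). Both sets of LTP libraries lay above their controls without overlap. Kcnk1 (TWIK-1), the most abundant gene of this family, went the other way, from 106, 109 and 110 CPM to 92.6, 87.8 and 85.3 CPM. Its log2 fold change was -0.28 ± 0.059 (SE, edgeR adjusted p = 0.0396). The other 7 tested two-pore domain genes were not called, with Kcnk2 (TREK-1), which is related to Kcnk10, at a log2 fold change of -0.05 ± 0.16 (SE) and Kcnk3 (TASK-1), which is related to Kcnk9, at -0.23 ± 0.11 (SE).

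The auxiliary subunit gene Kcne4 had the largest log2 fold change of the 11. It encodes a single-span protein that binds Kv channels, and it lies on the plus strand at chr1:78816758-78820028. It had 7.07, 6.08 and 5.78 CPM in the 3 hr controls and 9.50, 10.3 and 9.23 CPM after LTP. The rise was 1.55-fold, with a log2 fold change of 0.63 ± 0.10 (SE, edgeR adjusted p = 0.0161), and the groups did not overlap. Of the other 13 tested auxiliary genes, 0 were called at 1 hr and 0 at 3 hr by edgeR, DESeq2 or limma-voom, and 1 and 0 had an unadjusted p under 0.05. They include the abundant Kv4 partners Kcnip2 (KChIP2), Kcnip3 and Kcnip4 and the beta subunits Kcnab1 and Kcnab2.

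Kcnh7 and Kcnn3 rose by smaller amounts. Kcnh7 (Kv11.3, an ERG channel) had 105, 104 and 114 CPM in the controls and 152, 128 and 135 CPM after LTP, with a log2 fold change of 0.37 ± 0.078 (SE, edgeR adjusted p = 0.0391). Kcnn3 (SK3) had 11.8, 11.9 and 12.1 CPM in the controls and 14.6, 13.6 and 16.2 CPM after LTP, with a log2 fold change of 0.32 ± 0.085 (SE, edgeR adjusted p = 0.0772). The groups did not overlap for either gene. The other SK genes were not called, and Kcnn2 (SK2), the most abundant of them, had a log2 fold change of 0.10 ± 0.068 (SE).

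Lower levels after LTP were found for modifier and Kv3 subunits. Kcns1 and Kcns2 encode Kv9.1 and Kv9.2, which form no channel alone and alter Kv2 channels they join. Kcns1 had 6.73, 7.69 and 7.22 CPM in the 3 hr controls and 5.11, 5.47 and 5.62 CPM after LTP, with a log2 fold change of -0.40 ± 0.096 (SE, edgeR adjusted p = 0.057). Kcns2 had 54.9, 56.3 and 55.4 CPM in the controls and 42.9, 48.7 and 44.6 CPM after LTP, with a log2 fold change of -0.28 ± 0.067 (SE, edgeR adjusted p = 0.0583). In both genes every LTP library lay below every control. The third gene of this subfamily, Kcns3, had a log2 fold change of -0.30 ± 0.10 (SE, edgeR adjusted p = 0.138), and was called with the animal as a replicate block. Kcnc4, the inactivating Kv3.4 subunit, had 31.1, 29.3 and 33.7 CPM in the controls and 26.2, 24.5 and 26.0 CPM after LTP, with a log2 fold change of -0.28 ± 0.079 (SE, edgeR adjusted p = 0.0921).

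**Figure D3:**
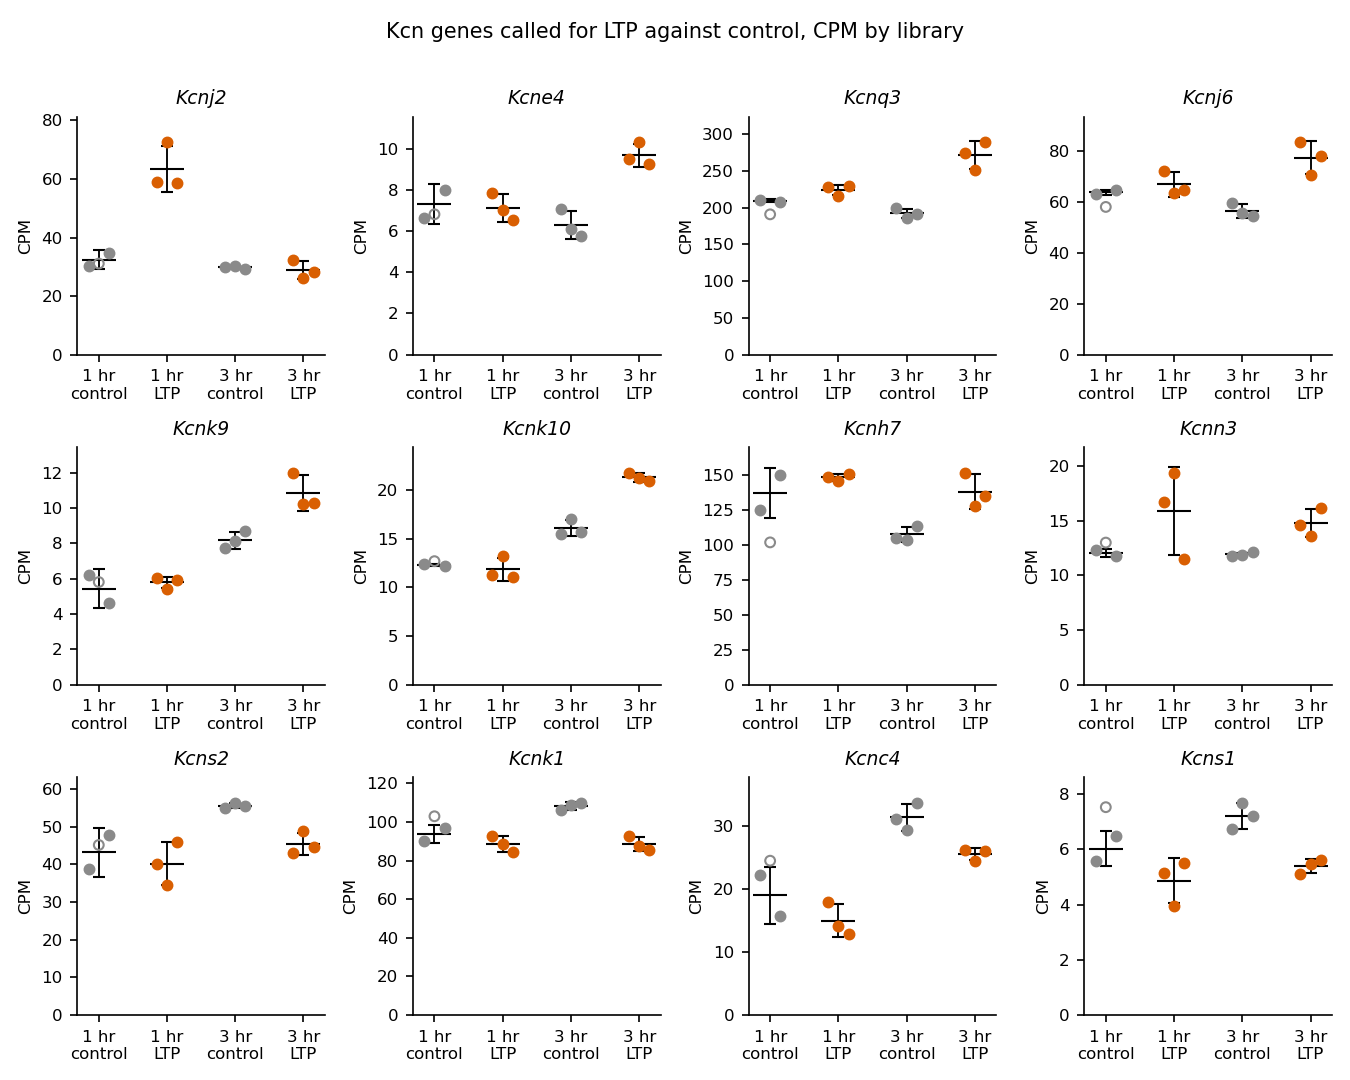
CPM in each library for Kcnj2 and the 11 genes called at 3 hr (y axis from 0), in the 4 groups on the x axis. Gray points are controls, orange points LTP, the open point is 1 hr control replicate 2, which the fit left out, and bars are mean ± SD of the fitted libraries. Kcnj2 at 1 hr has 59.1, 72.5 and 58.6 CPM after LTP, above the controls, and Kcnq3 at 3 hr lies between 251 and 289 CPM after LTP, above the controls.

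A pair of further genes had an adjusted p under 0.1 at 3 hr with a fold change below the minimum. Kcnb2 (Kv2.2) had 49.5, 46.9 and 47.1 CPM in the controls and 57.9, 55.1 and 55.7 CPM after LTP, with a log2 fold change of 0.25 ± 0.061 (SE, edgeR adjusted p = 0.0607). Kcnma1, the pore of the large-conductance calcium-activated channel, had 196, 201 and 197 CPM in the controls and 227, 221 and 255 CPM after LTP, with a log2 fold change of 0.26 ± 0.066 (SE, edgeR adjusted p = 0.0689). Both lay higher in every LTP library than in any control. Over the 80 genes, the 3 hr groups did not overlap for 25 genes, 13 higher and 12 lower after LTP. That is 31.2%, beside 27% of all genes tested. In the Kv1 and Kv4 subfamilies 0 of 6 and 0 of 3 tested genes were called by edgeR, DESeq2 or limma-voom, and 1 and 0 had an unadjusted p under 0.05. Kcna3 (Kv1.3) was called with offsets for GC content and exon length, at a log2 fold change of 0.30 (edgeR adjusted p = 0.0641), and Kcna2 and Kcnd1 were called when 3 hr LTP replicate 2 was left out. The subfamilies had medians of 0.07 and 0.06 on the log2 scale and Kcnd2 (Kv4.2) at 0.06 ± 0.065 (SE).

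The 3 hr calls rested on single libraries to a varying degree. Leaving out 3 hr control replicate 2 left 2 calls (Kcnk10 and Kcnq3), leaving out 3 hr control replicate 1 or 3 hr LTP replicate 1 left 3, leaving out 3 hr control replicate 3 left 5, and leaving out 3 hr LTP replicate 2 gave 19. Offsets for GC content and exon length kept 6 of the 11 calls (Kcne4, Kcnq3, Kcnj6, Kcnk9, Kcnk10 and Kcns2), lost Kcns1, Kcnc4, Kcnk1, Kcnh7 and Kcnn3, and added 2 genes, Kcna3 among them. Of 49 cell type markers tested at 3 hr, 0 were called for LTP by edgeR, with 5 at an unadjusted p under 0.05. limma-voom called 0 as well, and DESeq2 called 2, Cdh24 and Aqp4.

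None of the 11 genes called at 3 hr was called in the interaction, so a change of their LTP effect between time points was not shown. The largest interaction values were a log2 difference of 0.67 ± 0.17 (SE, edgeR adjusted p = 0.387) for Kcne4, 0.47 ± 0.13 (SE, adjusted p = 0.396) for Kcnk10, 0.41 ± 0.094 (SE, adjusted p = 0.279) for Kcnq3 and 0.40 ± 0.11 (SE, adjusted p = 0.434) for Kcnj6. Kcnq3 was called in the interaction by DESeq2 and when 3 hr LTP replicate 2 was left out. At an unadjusted p under 0.05 there were 11 of 81 genes in the interaction, 9 higher and 2 lower, beside 6.59% of all genes.

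Control slices differed between the time points as well. Of 81 genes tested between the 3 hr and 1 hr controls, 28 were called, 17 higher and 11 lower at 3 hr. That is 34.6% against 32.8% of all 18584 genes tested. The higher calls are 21% beside 16.1% and the lower calls 13.6% beside 16.8%. The animals of the 2 time points were treated as different ones, so time after treatment and animal cannot be told apart in this comparison.

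Of 12 tested inward rectifier genes 2 rose, Kcnj4 and Kcnj12, and 1 fell. Kcnj4 (Kir2.3) had 42.1 and 41.2 CPM in the fitted 1 hr controls, 51 in the library left out, and 74.5, 71.5 and 86.7 CPM in the 3 hr controls. Its log2 difference was 0.87 ± 0.11 (SE, edgeR adjusted p = 0.000177), a 1.83-fold rise. Kcnj12 (Kir2.2) rose by 0.70 ± 0.16 (SE), from 2.17 and 2.75 CPM, with 3.19 in the library left out, to 3.78, 3.75 and 4.73 CPM. Of 10 tested two-pore domain genes 5 rose, namely Kcnk5 (TASK-2), Kcnk12 (THIK-2), Kcnk3 (TASK-1), Kcnk9 and Kcnk10, and none fell, although the value of Kcnk12 turned negative with offsets for GC content and exon length. Kcnk3 had 3.77 and 3.86 CPM in the fitted 1 hr controls and 5.56, 6.58 and 6.65 CPM in the 3 hr controls, a log2 difference of 0.69 ± 0.13 (SE). Kcnk5 had the largest log2 difference, 1.48 ± 0.33 (SE), at levels from 0.379 to 1.42 CPM. Kcnh4 (Kv12.3) rose by 1.31 ± 0.30 (SE), also at low levels, and Kcnh3 (Kv12.2), its relative, by 0.55 ± 0.099 (SE). Kcnh3 had 40.8 and 42.4 CPM in the fitted 1 hr controls and 61.1, 56.8 and 68.3 CPM in the 3 hr controls. The 1 hr control left out had 58 CPM, within the range at 3 hr, and the call was kept when it was included. Other rises were of Kcnc4 (0.69), Kcnd1 (Kv4.1, 0.48), Kcng2 (Kv6.2, 0.43), Kcnt1 (0.38), Kcna3 (Kv1.3, 0.36), Kcnip2 (0.34) and Kcns2 (0.33). The calls of Kcnd1, Kcng2 and Kcnip2 were lost when the 1 hr control left out was included.

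Of 4 tested KChIP genes 2 fell, Kcnip4 and Kcnip1, and 1 rose, Kcnip2. Kcnip4 (KChIP4), a partner of Kv4 channels, had 81.7 and 81.0 CPM in the fitted 1 hr controls, 63.9 in the library left out, and 55.0, 49.5 and 50.6 CPM in the 3 hr controls. Its log2 difference was -0.68 ± 0.081 (SE, edgeR adjusted p = 9.66e-05), a 1.61-fold fall, and Kcnip1 fell too, by 0.40 on the log2 scale. Kcnj3 (GIRK1) had 307 and 327 CPM in the fitted 1 hr controls, 277 in the library left out, and 239, 233 and 243 CPM in the 3 hr controls, with a log2 difference of -0.44 ± 0.065 (SE, edgeR adjusted p = 0.000355). For both genes all 1 hr controls lay above all 3 hr controls. Kcnb2 (-0.48), Kcnt2 (-0.46), Kcnq5 (-0.45), Kcna4 (Kv1.4, -0.43), Kcnu1 (Slo3, -0.41), Kcnh7 (-0.38), Kcnv1 (-0.36) and Kcna2 (Kv1.2, -0.28) were the other falls on the log2 scale. The Kcna2 call was kept in 4 of 20 alternatives and the Kcnu1 call in 3 of 20.

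Several properties of the genes and libraries moved with this comparison. The exonic GC content had a median of 57.2% over the 17 genes that were higher at 3 hr, 44.5% over the 11 that were lower and 52.7% over the 53 not called. Across the 81 genes the Spearman correlation of GC content with the log2 difference was 0.68, a description over genes that share the same libraries. With offsets for GC content and exon length, 14 of the 28 calls remained, 14 were lost and 4 were added. Those that remained were Kcnj4, Kcnj12, Kcnk3, Kcnk5, Kcnk9, Kcnk10, Kcnh4 and Kcns2 among the rises, and Kcnip4, Kcnip1, Kcnb2, Kcnj3, Kcnq5 and Kcna4 among the falls. Kcnk12 and Kcng2, at 69.4% and 65.0% GC, turned from log2 differences of 0.73 and 0.43 to -0.21 and -0.24. Markers of microglia were called lower at 3 hr for 5 of 6 genes, beside 16.8% of all genes tested. Their summed levels were 290 to 301 CPM in the fitted 1 hr controls and 202 to 232 CPM in the 3 hr controls. Markers of mural cells were called lower for 3 of 5 genes and those of neurons for 3 of 7, beside the same 16.8%. Those of oligodendrocytes were called higher for 3 of 6, beside 16.1% of all genes. The part of these in the differences between the controls was not tested.

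**Figure D4:**
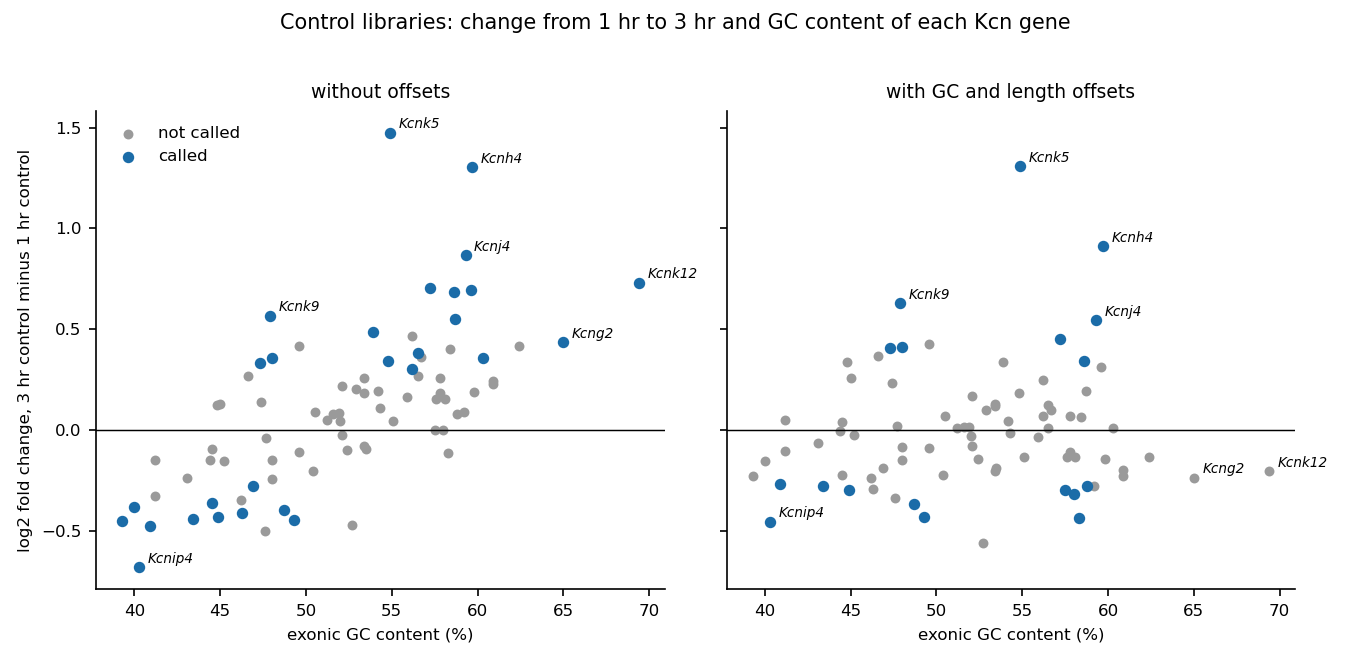
Log2 fold change of 3 hr against 1 hr controls (y axis) and exonic GC content in percent (x axis) of the 81 tested Kcn genes, without (left) and with (right) offsets for GC content and exon length. Blue points are called genes. Genes called higher have a median GC content of 57.2% and those called lower 44.5%, and Kcnk12 and Kcng2 fall below 0 with the offsets.

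The comparison of LTP with control at 3 hr and that of the 3 hr with the 1 hr controls share the 3 hr control libraries, so their values are given side by side for genes called in each. Kcnk9 and Kcnk10 were higher in both, with log2 differences between the controls of 0.57 ± 0.13 (SE) and 0.36 ± 0.095 (SE). Kcnk9 had 4.64 to 6.2 CPM over all 6 libraries at 1 hr, 7.72 to 8.68 CPM in the 3 hr controls and 10.2 to 12 CPM after LTP at 3 hr. Kcnc4 and Kcns2 were higher in the 3 hr than in the 1 hr controls and lower after LTP at 3 hr than in the 3 hr controls. Kcnh7 was lower in the 3 hr than in the 1 hr controls and higher after LTP at 3 hr, with 128 to 152 CPM after LTP, 104 to 114 CPM in the 3 hr controls, 125 and 150 CPM in the fitted 1 hr controls and 102 CPM in the 1 hr control left out. The call between the controls was lost when that library was included.

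A list of 23 genes that are not named Kcn but encode partners or anchors of potassium channels, or the related HCN channels, was read beside them. Of 21 tested at 1 hr, 0 were called by edgeR, DESeq2 or limma-voom, with 2 at an unadjusted p under 0.05. At 3 hr, 2 of 21 were higher and 0 lower, beside 6.6% of all genes called. Ank3, the scaffold ankyrin-G that holds Kv7 channels at the axon initial segment, rose by 0.44 ± 0.093 (SE, edgeR adjusted p = 0.0393). Its level was 579 ± 20.1 CPM in the 3 hr controls and 778 ± 96.2 CPM after LTP (SD, n = 3 each). Cntnap2, which clusters Kv1 channels along axons, rose by 0.27 ± 0.062 (SE, edgeR adjusted p = 0.0497), from 197 ± 4.83 to 236 ± 15.4 CPM (SD). The Kv4 partners Dpp6 and Dpp10 were not called. Between the controls, 3 of the 21 genes were higher at 3 hr and 4 lower, a share close to the 32.8% of all genes called. Among them were Akap5, an anchor of kinases near channels, at -0.60 ± 0.065 (SE) on the log2 scale, and Hcn4 at 1.16 ± 0.24 (SE).

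Forskolin raises cyclic AMP, and cyclic AMP acts on transcription through factors that bind the cyclic AMP response element (CRE), TGACGTCA, or its core, TGACG. RefSeq promoters of GRCm38.p6, from 250 bases before to 50 bases after a start, were searched on both strands for these and for the AP-1 site TGANTCA. A core inside a full CRE counts for each. Entries were found for 69 of the 94 genes, with 94 promoters. The full CRE was in 0 of these and in 1.79% of all 32851 promoters, and the core was in 18 (19.1%) against 20.8% of all. The AP-1 site was in 4 (4.26%) against 7.81% of all. The 1 promoter listed for Kcnj2 held none of the 3 motifs in this window. Among the genes called at 3 hr, 3 of the 8 with an entry held a core, namely Kcne4, Kcnc4 and Kcnj6. Over all genes with an entry it was 6228 of 27025. Counted by promoter it was 3 of 10 (30%) for the called genes, beside the 20.8% of all promoters. The sites of Kcne4, which rose, and of Kcnc4, which fell, lie before the RefSeq start searched but inside the gene span of GENCODE M21, which starts further upstream. They are shown with the core in capitals, each 5′ to 3′ on the strand of the gene, at chr1:78816849-78816878 (plus strand) and chr3:107458945-107458974 (minus strand).
Kcne4: tcccggaacacgTGACGatgcatttcttga
Kcnc4: ccctccccgttcTGACGctgcctccttggg
The core begins 50 bases before the RefSeq start in Kcne4 and 64 bases before it in Kcnc4. A match of letters is a description and does not show that a factor binds there.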

How the data were processed

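The authors deposited raw counts per gene, 1 table per time point, made from paired-end reads aligned to mm10. Whether counting used strand is not given in the sources used here. In all, 28 members share exonic bases with another gene, 7 of them over 10%, so their values are uncertain. The submitters' processing notes name DESeq2. Versioned Ensembl IDs were matched to GENCODE M21 without the version (40217 of 41091), and 20 of the 94 members have the same version there. Differences were tested on the counts with edgeR 4.0.16 (R 4.3.3): filterByExpr, TMM, quasi-likelihood F test and Benjamini-Hochberg adjustment over all tested genes. The time points were fitted separately, and the control comparison and the interaction in 1 model of 11 libraries. CPM values were TMM-scaled, and 0.1 CPM was added before log2 ratios were taken within an animal. The tests were checked on simulated counts. Per the labels a replicate number marks 1 animal within a time point. Deviations of paired libraries correlated at -0.0169, -0.134 and 0.0741 at 1 hr and 0.0297, -0.0384 and 0.194 at 3 hr for animals 1, 2 and 3.

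Every called gene was named where at most 25 were called, otherwise the 13 largest rises and 12 largest falls with a mean of at least 1 CPM. Where under 10 were called, those with the next smallest p were added, and the highest gene of each subfamily by CPM per kb. Kcnk5, Kcnip2 and Kcns2 in the control comparison, and genes named as relatives of a called one, fall outside this rule and were chosen after their values were seen. Some members are counted but not reported by name here. The members and lists were chosen with earlier results of these data known. Alternatives were DESeq2 1.42.0, limma-voom (limma 3.58.1), other scalings and filters, GC and length offsets from splines with 5 degrees of freedom, an animal block, a stricter threshold and each library left out.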

Additional observations from a re-analysis of the deposited data

Results flagged for a closer look

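The LTP effect on Kcnj2 differed between the time points by the interaction test, with a log2 value of -1.0 for the 3 hr effect minus the 1 hr effect. Within animals 1, 2 and 3 of the 1 hr time point the log2 ratio of LTP to control was 0.96, 1.22 and 0.75. Within those of the 3 hr time point, treated as different animals, it was 0.11, -0.19 and -0.07. Every animal sampled at 1 hr showed the rise, and no animal sampled at 3 hr had a change of that size. The ratio of animal 2 at 1 hr uses the control library that the fit left out.

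Kcnj8 (Kir6.1, found in mural cells) was lower after LTP in all 3 animals at 1 hr, with log2 ratios of -0.22, -0.35 and -0.34. It was higher in all 3 animals at 3 hr, which were treated as different ones, with log2 ratios of 0.20, 0.04 and 0.17. The mean ratios differ by 0.44. The ratio of animal 2 at 1 hr uses the control library that the fit left out. Kcnj8 was picked for this pattern of signs, so the agreement of the animals is not a test. The paired ratios were not tested, and the share of all genes with this pattern was not counted. The interaction in the model of the 4 groups was 0.57 ± 0.25 (SE, edgeR adjusted p = 0.734) and was not called. At 1 hr Kcnj8 had 3.00 and 4.24 CPM in the fitted controls, 2.88 in the library left out, and 2.55, 2.24 and 3.34 CPM after LTP. At 3 hr it had 3.59, 3.61 and 3.15 CPM in the controls and 4.13, 3.71 and 3.56 CPM after LTP. The groups overlapped at both times. Summed markers of mural cells were 182 and 184 CPM in the fitted 1 hr controls and 160 to 176 CPM after LTP at 1 hr, and 135 to 142 CPM against 133 to 139 CPM at 3 hr. Those of endothelium were 83 to 91.9 CPM against 72.2 to 74.7 CPM at 1 hr, and 76.5 to 79.3 CPM against 74.3 to 92.5 CPM at 3 hr. For the mural gene Acta2 the LTP effect was -0.46 on the log2 scale 1 hr after treatment and 0.17 after 3 hr, and neither was called. The other mural markers differed less between the times. The effects at 1 hr and 3 hr were -0.066 and -0.101 for Pdgfrb and -0.121 and -0.016 for Rgs5. They were -0.083 and 0.015 for Vtn and -0.001 and -0.011 for Notch3, none of them called. Their part in the values of Kcnj8 was not tested.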

How the results depend on the processing

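With 3 libraries a group and 2 fitted 1 hr controls, single libraries decided several counts. At 1 hr 1 gene was called, and 2 with no filter beyond 1 count. With each library left out the count was 1 to 2. At 3 hr 11 genes were called, 6 at an adjusted p under 0.05, and 2 to 19 with each library left out. Between the controls the count of 28 became 18 with GC and length offsets, where Kcnk12 and Kcng2 reversed to log2 values of -0.21 and -0.24. The cause was not tested. In the interaction DESeq2 called 2 genes, and leaving out each library gave 0 to 2. The replicate block gave 1 call at 1 hr, 12 at 3 hr, where it added Kcns3, and 1 in the interaction, and changed no other call. Of the remaining comparisons of a count with its alternative, 63 stayed within 1.5 times. For named genes, 906 values kept direction and side of the threshold, 110 were no longer called, 4 became called and 2 reversed. Genes under about 0.0791 CPM lie below 3 counts, and the time points cannot be separated from their animals.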
